A study of Mus musculus with 18 samples.

Results

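The ribosome genes of the mouse colon were examined in polyadenylated RNA from 18 libraries. A gene was taken when the pathway annotation in the deposited table listed the KEGG pathway named Ribosome, and genes encoded in mitochondrial DNA were left out, which gave 211 of the 35405 genes in the table. They comprise 85 protein-coding genes of the cytosolic ribosome (51 of the large subunit and 34 of the small subunit), 43 protein-coding genes of the mitochondrial ribosome (28 and 15), 52 processed copies and other copies without a protein-coding biotype, 30 genes for 5S ribosomal RNA and Rsl24d1, a ribosome assembly factor. The study concerned GPR84, a receptor for medium-chain fatty acids on myeloid cells, and plant compounds acting on it in inflammatory bowel disease. There were 3 groups of 6 libraries of colon tissue: vector, which the table calls control, TNBS and IBC. TNBS is trinitrobenzene sulfonic acid, which binds proteins of the gut wall and provokes colitis in rodents, and IBC is isobavachalcone, a prenylated chalcone. It is not stated whether TNBS was also given to the IBC group, and dose, time, strain, age, sex and the number of animals behind each library are not labelled. The p-values therefore only set differences between groups against the spread of these libraries, which may be technical.

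The cytosolic ribosome translates messenger RNA from the nucleus, with a small subunit that decodes and a large subunit that joins amino acids. Its proteins are made in near equal numbers, and their messenger RNAs begin with a tract of C and T (terminal oligopyrimidine, or TOP, mRNAs), through which the kinase complex mTORC1 sets their translation. The mitochondrial ribosome is a separate machine, whose proteins are encoded in the nucleus and imported, and which makes core subunits of the respiratory chain. In the colon, dividing crypt cells and activated immune cells are known for high ribosome production.

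The annotated starts of 6 members show where a run of C and T was and was not found. A single RefSeq start was taken per gene, and the start used in this tissue was not measured. A missing run therefore need not mean a message without the tract. Each line gives 25 bases before the RefSeq start and 20 from it on (GRCm38.p6). Capitals mark a run of 5 or more C and T that covers the start or begins within 5 bases of it. Runs elsewhere in the window are not marked.
Rps6, chr4:86857348-86857392, minus strand: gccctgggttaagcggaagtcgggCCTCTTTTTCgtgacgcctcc
Rpl12, chr2:32961687-32961731, plus strand: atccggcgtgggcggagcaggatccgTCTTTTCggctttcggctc
Rps2, chr17:24720038-24720082, plus strand: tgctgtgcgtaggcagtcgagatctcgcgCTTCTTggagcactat
Mrpl3, chr9:105053243-105053287, plus strand: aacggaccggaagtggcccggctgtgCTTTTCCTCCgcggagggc
Rpsa, chr9:120127741-120127785, plus strand: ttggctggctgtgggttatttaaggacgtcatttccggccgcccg
Mrpl12, chr11:120484612-120484656, plus strand: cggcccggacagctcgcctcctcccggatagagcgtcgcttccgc
The first 3 are cytosolic members with the run and Mrpl3 is a mitochondrial member with it. In Rps2 the run begins 4 bases past the annotated start. In Rpsa and Mrpl12 no run of that length covered the start or began within 5 bases of it. Such a run covered the start or began within 5 bases of it in 48.4% of the 64 cytosolic genes with a RefSeq promoter. The share was 20.5% of the 39 mitochondrial genes and 23.7% of all 27025 genes with a RefSeq promoter. Within the 300 bases around the start, the letters CCGGAAG, searched on both strands, were found in 39.1% of the cytosolic, 33.3% of the mitochondrial and 9.12% of all promoters. The letters AAGATGG were found in 14.1%, 17.9% and 6.48%, and CACGTG in 7.81%, 10.3% and 7.24%. CCGGAAG and AAGATGG can share the letters AAG, and the reverse complement CTTCCGG can lengthen a run of C and T. A match is a description of the letters and shows no binding.

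The libraries held between 55.7 and 78.9 times 1e6 counts each. Colonic epithelium markers were found in all libraries (10 of 10 listed genes, summed level 12599 to 38340 counts per 1e6 counts of the library, CPM), and 1 vector library, vector 6, also held pancreatic acinar markers at 11921 CPM. Hoxb13, a homeobox gene of the hindmost gut, was below 10 CPM in vector 3 and 4, TNBS 2 and 3, and IBC 2 and 5, and at 123 to 598 CPM in the other 12. These are called the Hoxb13-low and Hoxb13-high libraries, and both kinds occur in every group (2 and 4). A single library, TNBS 5, stood apart for the ribosome genes, and results are given with and without it. In bulk tissue, fewer cells of a type and less RNA per cell cannot be told apart.

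Cytosolic ribosomal protein genes were among the most abundant messages of the tissue. Their median level was 195 FPKM (fragments per kilobase and per 1e6 fragments, a level per length), against 18.3 FPKM for the mitochondrial class and 0.485 FPKM for the copies, as means over the 18 libraries. Rplp1, a protein of the acidic stalk that recruits translation factors, had the highest mean at 1555 FPKM (chromosome 9, 61820566 to 61821824, minus strand, in the coordinates of the deposited table, whose build is not given in the sources used here). Rps15 followed at 899.7 FPKM and Rps3a1 at 824 FPKM, both small-subunit proteins. Rplp0, the base of the stalk, stood at 657 FPKM, and Rpl41, the smallest ribosomal protein, at 625.2 FPKM. Rps6, the S6 kinase substrate (chromosome 4, 86772897 to 86775649, minus strand), stood at 533 FPKM, and Rpsa, which also serves as a laminin receptor precursor (chromosome 9, 119956755 to 119961435, plus strand), at 464 FPKM. The proteins made as fusions with ubiquitin or a ubiquitin-like domain included Fau at 406 FPKM and Rps27a at 233 FPKM.

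The mitochondrial class was led by Mrpl12, which also binds the mitochondrial RNA polymerase (chromosome 11, 120375439 to 120379891, plus strand), at 107 FPKM, followed by Mrps21 at 55.9 and Mrpl34 at 55.7 FPKM. Mrps12, a protein of the decoding centre, was at 24.2 FPKM, Mrpl11 of the factor-binding stalk at 9.03 FPKM and Mrps18a at 8.58 FPKM. The lowest were Mrpl19 at 5.00, Mrpl32 at 4.97 and Mrps10 at 3.71 FPKM. The classes overlap in level, since Mrpl12 stood above Rpl39 at 91.3 FPKM.

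Tissue-restricted paralogues were near the floor. Rpl3l, the muscle paralogue of Rpl3, was at 0.0904 FPKM where Rpl3 was at 168 FPKM, and Rpl39l, a testis paralogue of Rpl39, was at 0.0163 FPKM and did not pass the filter on low counts. Rpl22l1, which can take the place of Rpl22 in the ribosome, was at 26.1 FPKM beside 62.4 FPKM for Rpl22.

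**Figure D1:**
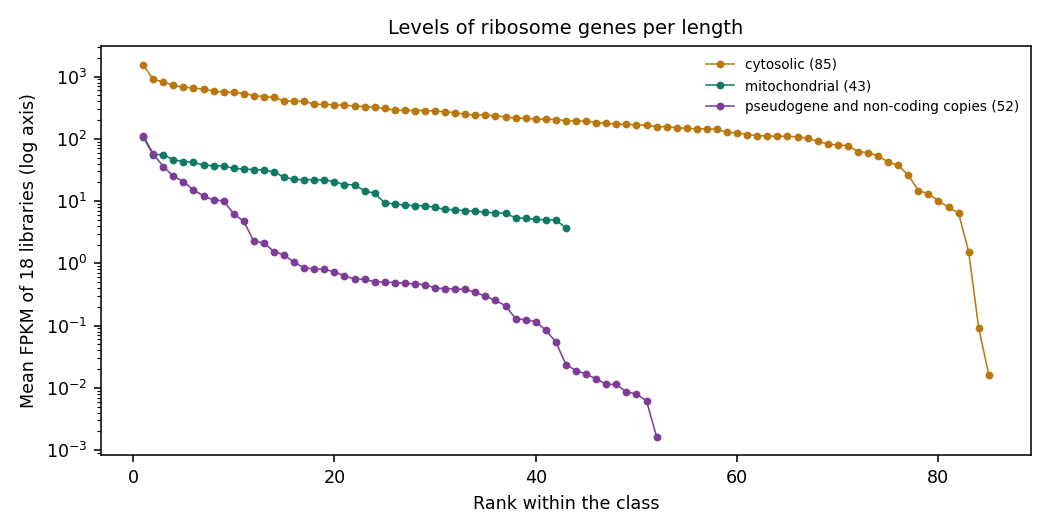
Mean FPKM over the 18 libraries (log axis) of each ribosome gene against its rank within its class, 1 point per gene, for the 85 cytosolic genes, 43 mitochondrial genes and 52 copies. Cytosolic genes start at 1555 FPKM (Rplp1) and drop steeply over the last few ranks to 0.0163 FPKM (Rpl39l), and mitochondrial genes run from 107 to 3.71 FPKM.

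For some cytosolic genes most counts lay at named copies rather than at the gene. Among the 85, 74 reached 50 FPKM and 8 were under 20 FPKM, 6 of which have named copies (gene symbol followed by -ps) elsewhere in the table. As means over the 18 libraries, Rps2 had 5662 counts while its 9 named copies together had 69152, so that 7.57% of the counts lay at the gene. For Rps18 the share at the gene was 6.67% and for Rpl21, which stood at 1.53 FPKM, it was 6.64%. The next lowest of the genes that passed the filter was Rpl29, at 6.39 FPKM. In all, 60 genes had named copies, 17 kept under 90% of the counts of gene and copies, and 6 kept under 50%. The counting method is not given in the sources used here, and how reads that match both a gene and its copies were assigned was not tested, so levels of these members are uncertain. A pair of copies differed in this way between libraries: Rps18-ps6 was listed at 0 in TNBS 1 and at 229 to 1183 CPM in the other 17, whereas Rps18-ps4 was at 311 CPM in TNBS 1 and at 0 in the other 17.

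Cytosolic ribosomal protein genes took a similar share of the counts in most libraries. The 85 genes held 2.52% to 4.16% of the counts in the vector libraries (median 3.38%, mean 3.33% ± 0.739, SD, n = 6). They held 2.97% to 9.83% in TNBS (median 4.17%, 4.92% ± 2.46, n = 6) and 3.24% to 4.59% in IBC (median 3.71%, 3.82% ± 0.537, n = 6). TNBS 5 held the 9.83%, and the other 5 TNBS libraries lay at 2.97% to 4.29% (3.93% ± 0.545, n = 5), overlapping both other groups. For the 43 mitochondrial genes the share was 0.185% ± 0.0142 in vector, 0.239% ± 0.0589 in TNBS (0.219% ± 0.0350 without TNBS 5) and 0.210% ± 0.0497 in IBC. In the Hoxb13-low libraries the cytosolic shares did not overlap between vector (2.52% to 2.62%) and either TNBS (4.12% to 4.22%) or IBC (3.74% to 4.59%), with 2 libraries a group. These vector libraries, vector 3 and vector 4, were the lowest of all 18 for 19 and 45 of the 84 cytosolic genes tested. Without genes of mitochondrial DNA in the total, their shares were 3.22% and 2.87%, against 4.12% to 4.92% in the Hoxb13-low TNBS and IBC libraries. In the Hoxb13-high libraries they overlapped: 2.88% to 4.16% in vector, 2.97% to 9.83% in TNBS and 3.24% to 4.32% in IBC. The log2 ratio of mitochondrial to cytosolic counts was -4.14 ± 0.239 in vector, -4.28 ± 0.321 in TNBS and -4.20 ± 0.180 in IBC, differences smaller than the spread between libraries.

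**Figure D2:**
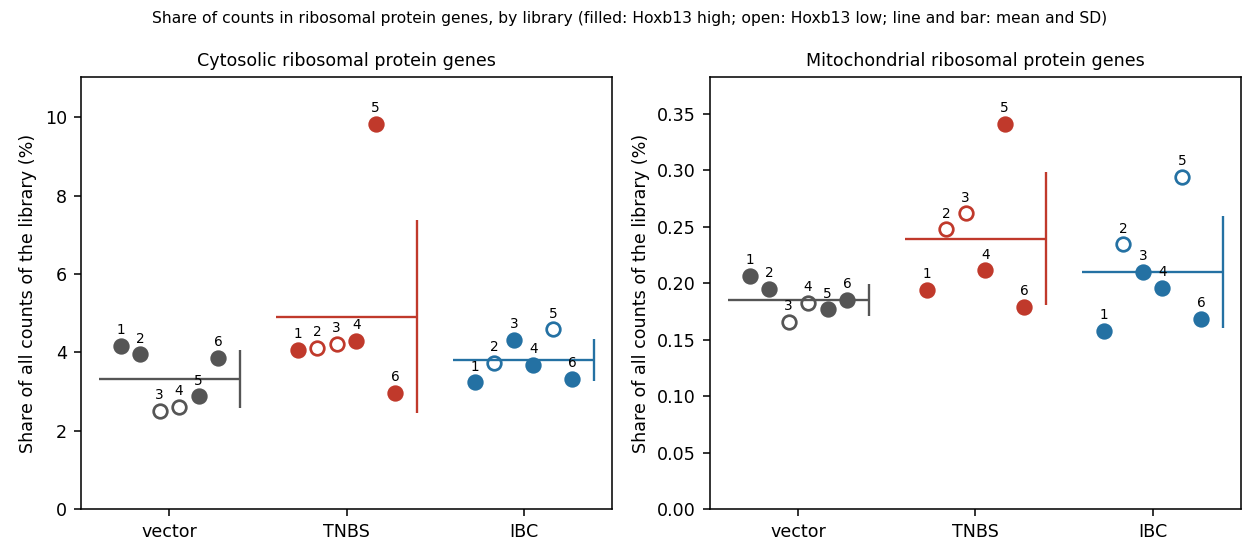
Percent of all counts held by cytosolic (left) and mitochondrial (right) ribosomal protein genes, 1 numbered point per library by group, filled for Hoxb13-high and open for Hoxb13-low libraries, with lines for the mean and bars for the SD. TNBS 5 lies at 9.83% for the cytosolic genes, above the other 17 libraries at 2.52% to 4.59%.

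The comparison of TNBS with vector asks how the inflamed colon differs from the control. In edgeR's quasi-likelihood test with Benjamini-Hochberg adjustment over 20855 genes at a threshold of 0.05, no cytosolic and no mitochondrial ribosomal protein gene passed, against 0.0192% of all genes (4 genes). The smallest adjusted p was 0.144 for the cytosolic and 0.187 for the mitochondrial class. Yet the direction was shared: all 84 cytosolic genes tested and all 43 mitochondrial genes had a higher fitted level in TNBS, where 48.9% of all genes did. The median log2 difference was 0.64 for the cytosolic class (0.29 to 0.99) and 0.45 for the mitochondrial class (0.16 to 0.74), with -0.01 over all genes. At an unadjusted p under 0.05, 50 of the 84 cytosolic and 14 of the 43 mitochondrial genes were higher, where 10.4% of all genes were. DESeq2 called 1 cytosolic gene (Rpl17) and no mitochondrial gene, where it called 1.68% of all genes higher.

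The values were smaller without TNBS 5. There the median was 0.22 for the cytosolic class, with 78 genes higher and 6 lower, and 6 of the 84 had an unadjusted p under 0.05, near the 7.94% of all genes that did. The 6 lower genes were Rpl39, Rpl37, Rps29, Rpl29, Rps28 and Rps27rt, named after their values were seen. The mitochondrial median without TNBS 5 was 0.27, with 42 genes higher, 1 lower (Mrpl14) and 3 at an unadjusted p under 0.05. The 2 subunits had similar medians in the fit of all 18 libraries, 0.63 for the large and 0.66 for the small cytosolic subunit, and of 0.47 and 0.42 for those of the mitochondrion. Within the Hoxb13-high libraries the medians were 0.66 for the cytosolic and 0.45 for the mitochondrial class. Without TNBS 5 in that set they were -0.04, with 35 cytosolic genes higher and 48 lower of 83 tested, and 0.06, with 27 mitochondrial genes higher and 16 lower. Within the Hoxb13-low libraries, which do not include TNBS 5 and hold 2 of each group, they were 0.62 and 0.55.

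**Figure D3:**
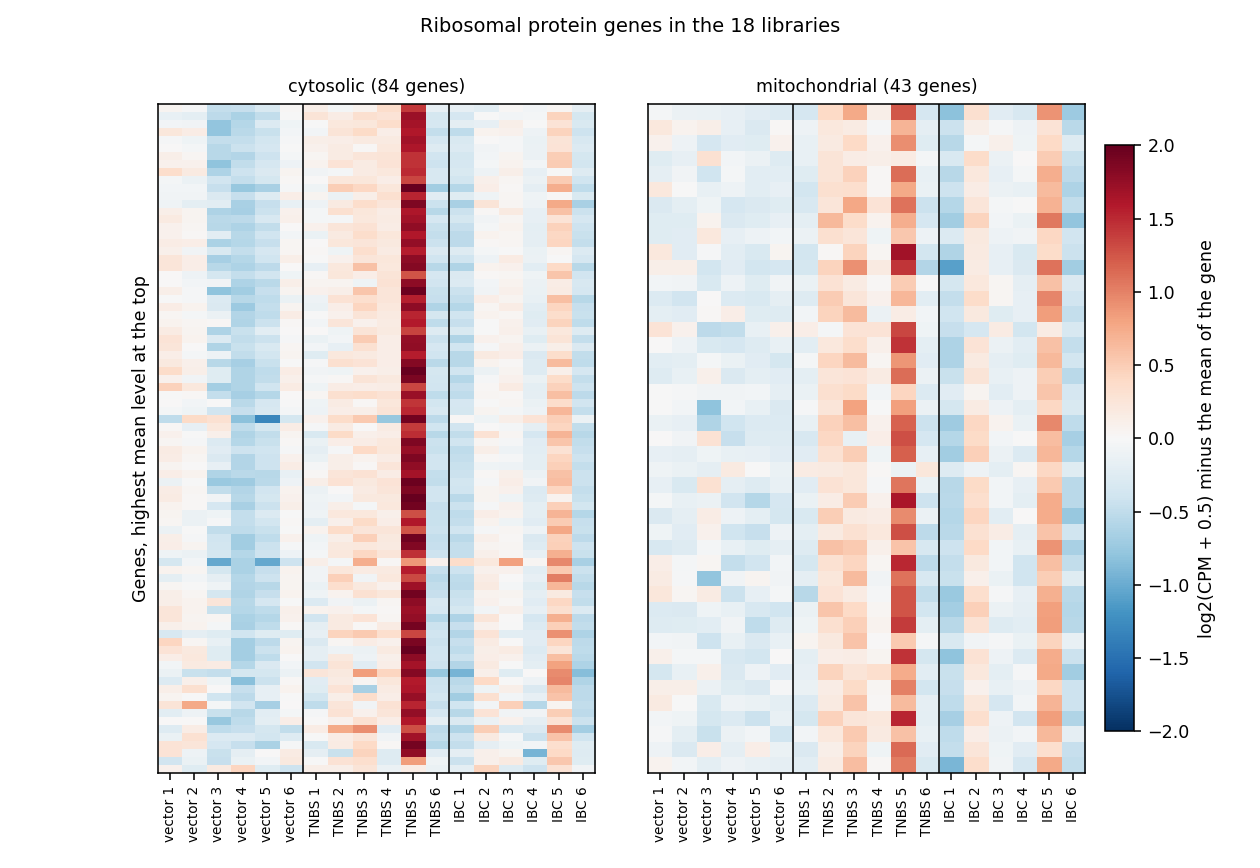
Level of each cytosolic (left, 84 genes) and mitochondrial (right, 43 genes) ribosomal protein gene in the 18 libraries, as log2(CPM + 0.5) minus the mean of the gene, red for higher and blue for lower. TNBS 5 is the highest library for 82 of the 84 cytosolic and 31 of the 43 mitochondrial genes.

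Among the cytosolic genes, Rpsa lay at 985 to 1519 CPM in vector (median 1215), 1200.16 to 5021 CPM in TNBS (median 1845) and 1204 to 2093 CPM in IBC (median 1488). TNBS 5 was the highest and the TNBS and vector libraries overlapped, with 5 of 6 TNBS libraries above the vector median. Its log2 difference between TNBS and vector was 0.87 ± 0.28 (SE; edgeR adjusted p = 0.172), and 0.48 without TNBS 5. Rps6, whose protein S6 kinase phosphorylates, lay at 597 to 975 CPM in vector (median 777), 687 to 2441 CPM in TNBS (median 1033) and 701 to 1261 CPM in IBC (median 844). The groups overlapped, and the log2 difference was 0.63 ± 0.26 (edgeR adjusted p = 0.235), and 0.31 without TNBS 5.

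Proteins of the stalk gave values of similar size. Rplp0 lay at 660 to 1103 CPM in vector (median 1008) and 908 to 3613 CPM in TNBS (median 1324), a log2 difference of 0.79 ± 0.27 (edgeR adjusted p = 0.190) and 0.40 without TNBS 5. Rpl12, at the base of the stalk, lay at 363 to 686 CPM in vector (median 541) and 462 to 2455 CPM in TNBS (median 715), a difference of 0.90 ± 0.32 (edgeR adjusted p = 0.198) and 0.41 without TNBS 5. In both genes the groups overlapped and TNBS 5 was far above the rest. Rplp1 and Rplp2 had highest TNBS values of 3115 and 598 CPM, against highest vector values of 770 and 250 CPM.

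The 2 largest fitted differences belonged to small-subunit proteins. Rps2, at the entry of the message channel, lay at 55.9 to 71.9 CPM in vector (median 60.8) and 46.0 to 280 CPM in TNBS (median 98.2), a log2 difference of 0.99 ± 0.35 (edgeR adjusted p = 0.198) and 0.60 without TNBS 5. Rps12 lay at 203 to 339 CPM in vector (median 274) and 241 to 1329 CPM in TNBS (median 401), a difference of 0.97 ± 0.33 (edgeR adjusted p = 0.187) and 0.46 without TNBS 5. The lowest TNBS library was inside the vector range for Rps12 and below it for Rps2. At the other end, Rps27rt and Rpl3l had log2 differences of 0.29 each.

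Several large-subunit proteins have roles outside the ribosome or at its active centre. Rpl5 and Rpl11, which with 5S RNA bind Mdm2, lay at 551 to 1082 and 385 to 659 CPM in vector, and at 680 to 2391 and 404 to 1839 CPM in TNBS. Rpl13a, part of an interferon-induced translation silencing complex, lay at 379 to 700 CPM in vector and 414 to 2180 CPM in TNBS. Rpl10, near the peptidyl transferase centre, lay at 565 to 857 CPM in vector and 669 to 2235 CPM in TNBS, and Rpl3 at 372 to 639 and 479 to 1453 CPM. TNBS 5 supplied the highest value in each of these genes, and the other TNBS libraries overlapped with vector.

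In the mitochondrial class, Mrpl19 was apart between TNBS and vector, while IBC overlapped both: 22.3 to 28.8 CPM in vector (median 26.8), 29.2 to 44.5 CPM in TNBS (median 32.4) and 23.9 to 40.9 CPM in IBC (median 27.8). All 6 TNBS libraries lay above the highest vector library, though the edgeR test gave 0.42 ± 0.14 on the log2 scale with an adjusted p = 0.187, and 0.38 without TNBS 5 (chromosome 6, 81934832 to 81942939, minus strand). Mrpl3 lay at 25.8 to 45.2 CPM in vector (median 42.3) and 41.7 to 80.9 CPM in TNBS (median 49.5), a log2 difference of 0.55 ± 0.20 (edgeR adjusted p = 0.198). Mrpl35 differed by 0.71 ± 0.27 (edgeR adjusted p = 0.212; 21.3 to 29.0 CPM in vector and 26.5 to 81.2 CPM in TNBS), and by 0.42 without TNBS 5, with all 6 TNBS libraries above the vector median but overlapping ranges.

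Mrps7, Mrpl13 and Mrpl17 had log2 differences of 0.54, 0.70 and 0.61 (edgeR adjusted p = 0.215, 0.220 and 0.221), and 0.41, 0.48 and 0.43 without TNBS 5. Their levels in vector were 38.5 to 48.1, 28.8 to 40.5 and 51.0 to 60.5 CPM, and in TNBS 42.1 to 92.0, 32.9 to 101 and 47.7 to 136 CPM. Mrpl12 lay at 143 to 168 CPM in vector, 136 to 408 CPM in TNBS and 97.4 to 323 CPM in IBC, and its log2 difference between TNBS and vector was 0.58 (edgeR adjusted p = 0.305). Ranges of all 4 genes overlapped between TNBS and vector.

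Counts of genes whose groups did not overlap were few. Of the members tested, Rpl17, Mrpl19 and the copy Gm10420 were higher in every TNBS library than in every vector library, where 0.432% of all genes were. Gm10420 had a log2 difference of 0.89 ± 0.29 (edgeR adjusted p = 0.177).

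TNBS 5 differed from the other 5 TNBS libraries by a median of 1.67 on the log2 CPM scale over the cytosolic genes (0.36 to 2.35, higher in 84 of 84) and by 1.00 over the mitochondrial genes (higher in 41 of 43), while the median of all genes was -0.02. Neutrophil markers (5 of 5 found, none at 0 in TNBS 5) summed to 223 CPM in TNBS 5, against 1.56 to 3.00 CPM in vector, 5.63 to 32.7 CPM in the other TNBS libraries and 2.41 to 62.2 CPM in IBC. Monocyte and macrophage markers (5 of 5 found) summed to 1418 CPM in TNBS 5 and to 123 to 840 CPM in the other 17. Proliferation markers, at 389 CPM, were inside the range of the others (177 to 610 CPM). Genes encoded in mitochondrial DNA took 9.20% of the counts in TNBS 5 and up to 17.98% in vector 3. Their part in the result was not tested.

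Length also moved with this library. The length implied by count and FPKM orders genes on a relative scale, since it exceeds the gene's span for 14 of 84 cytosolic and 4 of 43 mitochondrial genes. Over other genes above 10 CPM, TNBS 5 minus the other TNBS libraries had a median of 1.44 (log2) for implied lengths under 500, then 1.37, 0.86, 0.27 and -0.45 in the classes 500 to 1000, 1000 to 2000, 2000 to 4000 and 4000 or more. The cytosolic genes had medians of 1.74, 1.78, 1.72, 1.63 and 1.61 in the same classes, which held 2, 8, 35, 32 and 7 of them. Mitochondrial genes had 1.11, 1.05, 1.01 and 0.73 from 500 upwards, with 2, 14, 12 and 15 genes, so several classes are thin. The part of length in the difference of TNBS 5 was not tested.

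**Figure D4:**
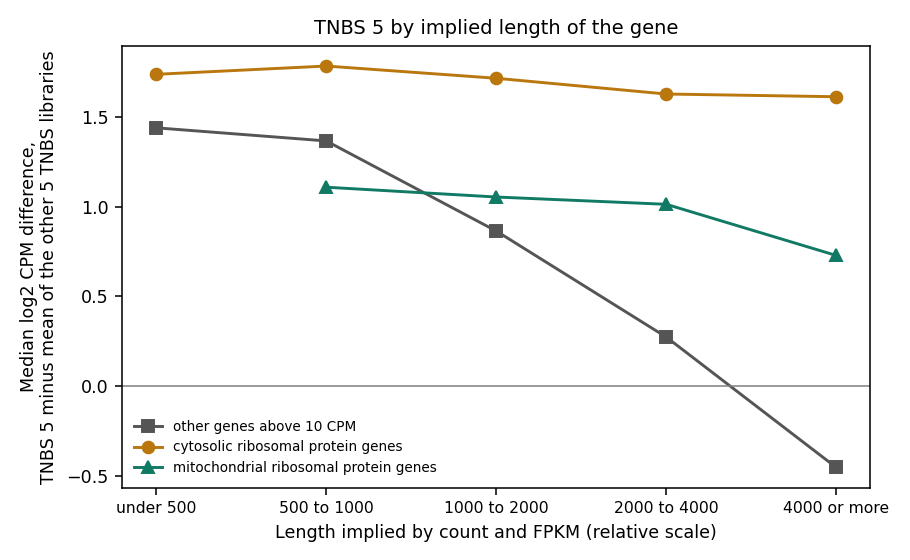
Median difference of TNBS 5 from the mean of the other 5 TNBS libraries (log2 CPM) in each class of implied length (relative scale), for cytosolic, mitochondrial and other genes above 10 CPM. The cytosolic medians stay between 1.61 and 1.78, and those of other genes decline from 1.44 to -0.45.

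Rpl17, a large-subunit protein at the exit of the peptide tunnel, had the smallest p of the ribosomal protein genes in both comparisons with vector. It lay at 138 to 270 CPM in vector (median 196), 274 to 511 CPM in TNBS (median 301) and 179 to 547 CPM in IBC (median 343). All 6 TNBS libraries were above the highest vector library, while IBC overlapped both. The log2 difference of TNBS from vector was 0.88 ± 0.25 (edgeR adjusted p = 0.144), and 0.77 without TNBS 5, and DESeq2 gave 0.90 with an adjusted p = 0.0333. That of IBC from vector was 0.93 ± 0.25 (edgeR adjusted p = 0.283), and DESeq2 gave 0.93 with an adjusted p = 0.0478, where it called 0.665% of all genes higher.

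The counts of Rpl17 are shared with 8 named copies, which held a mean of 29369 counts a library against 20051 at the gene. The share at the gene differed between groups: 22.3% to 38.0% in vector (median 28.1%), 24.8% to 59.4% in TNBS (median 39.2%) and 34.7% to 64.7% in IBC (median 51.5%). Gene and copies together lay at 476 to 858 CPM in vector (median 672), 516 to 2076 CPM in TNBS (median 784) and 516 to 937 CPM in IBC (median 689), and all groups overlapped. On this sum the log2 difference of TNBS from vector was 0.53 ± 0.28 (edgeR adjusted p = 0.317) and that of IBC from vector was 0.07 ± 0.28 (edgeR adjusted p = 0.970), and DESeq2 gave adjusted p = 0.247 and 0.968. Adding the copies, an alternative chosen after seeing the data, thus ended the DESeq2 calls of Rpl17. The share at the gene was steadier for Rps12, at 49.9% to 53.7%, and for Rps2, at 5.503% to 8.91%, over the 18 libraries. Some further members changed when copies were added. Rpl7a differed between TNBS and vector by 0.83 at the gene and 0.65 with copies. Rpl21 differed between IBC and TNBS by -0.22 at the gene and -0.51 with copies. With copies added throughout, edgeR gave 84 of 84 cytosolic genes higher in TNBS, none past the threshold and a median of 0.63, and DESeq2 called Rps2 (0.97, adjusted p = 0.0391), where 1.71% of all genes were called higher. In IBC against vector it then called no cytosolic gene, where 0.689% of all genes were called higher.

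No change was detectable between the members of 3 paralogue pairs. The log2 ratio of Rpl22l1 to Rpl22 averaged -1.89 in vector, -1.73 in TNBS and -1.82 in IBC (two-sided exact permutation test of TNBS against vector, p = 0.199, adjusted over 9 tests 0.883). Rps27l to Rps27 averaged -1.24, -1.18 and -1.20 (exact permutation p = 0.613, adjusted 0.883), and Rpl36al to Rpl36a -0.16, 0.01 and -0.02 (exact permutation p = 0.368, adjusted 0.883). The smallest p that the 924 assignments allow is 0.00216. The members of each of the first 2 pairs were highest in the same library, TNBS 5, at 185 and 624.6 CPM for Rpl22l1 and Rpl22, and 227 and 578 CPM for Rps27l and Rps27. Rpl36al and Rpl36a were also both highest in TNBS 5, at 424 and 656 CPM.

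The comparison of IBC with TNBS shares the TNBS libraries with the comparison above. No ribosome gene passed edgeR's test, as 0% of all genes did, and the smallest adjusted p over all genes was 0.925. The fitted level was lower in IBC for 83 of 84 cytosolic genes (all but Rpl17, at 0.04) and for all 43 mitochondrial genes. Of all genes, 50.3% were higher in IBC. The class medians were -0.51 and -0.30, with 0.00 over all genes. At an unadjusted p under 0.05, 10 cytosolic genes and 1 mitochondrial gene were lower, where 2.22% of all genes were. Without TNBS 5 the medians were -0.08 and -0.09, with 14 cytosolic genes higher and 70 lower, and no cytosolic gene had an unadjusted p under 0.05, where 1.21% of all genes were lower. DESeq2 called no ribosome gene, and 0.0048% of all genes in each direction.

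Rpl31, near the exit of the peptide tunnel, lay at 257 to 1365 CPM in TNBS (median 352) and 230 to 350 CPM in IBC (median 297). TNBS 5 stood far above every IBC library, and the log2 difference was -0.77 ± 0.33 (edgeR adjusted p = 0.925), and -0.16 without TNBS 5. Rpl12 differed by -0.75 ± 0.32, and -0.24 without TNBS 5, and Rpl34, Rpl6, Rps18 and Rps7 by -0.68, -0.54, -0.56 and -0.65 with the same adjusted p. Without TNBS 5 these 4 differences were -0.14, -0.14, -0.16 and -0.16. In IBC these 4 lay at 164 to 255, 587 to 728, 28.4 to 46.7 and 504 to 747 CPM.

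Of the mitochondrial genes, Mrps6 lay at 49.1 to 133 CPM in TNBS (median 60.1) and 37.9 to 58.5 CPM in IBC (median 41.5), and overlapped. Its log2 difference was -0.58 ± 0.23 (edgeR adjusted p = 0.925), and -0.28 without TNBS 5. Mrpl30 and Mrps14 differed by -0.57 and -0.45, and by -0.10 each without TNBS 5, with IBC levels of 40.6 to 80.3 and 32.7 to 76.2 CPM. Within the Hoxb13-high libraries the class medians of IBC against TNBS were -0.82 and -0.57, and -0.15 and -0.17 without TNBS 5. Within the Hoxb13-low libraries, which hold 2 of each group, they were 0.06 and 0.11.

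The comparison of IBC with vector shares libraries with both others. No member passed edgeR's test, as 0% of all genes did. The fitted level was higher in IBC for 74 of 84 cytosolic and 38 of 43 mitochondrial genes, where 49.1% of all genes were higher. The medians were 0.11 and 0.15, with -0.01 over all genes. Of the cytosolic genes 1, Rpl17, had an unadjusted p under 0.05, where 4.9% of all genes were higher at that p. After Rpl17 the smallest p belonged to Rpl30, Rps13, Rps12, Rpl36al and Rplp2, with log2 differences of 0.36, 0.28, 0.36, 0.30 and 0.31. Without IBC 5 these were 0.0905, 0.0709, 0.202, 0.0323 and 0.0305, and the class medians were -0.00604 for the cytosolic and -0.0237 for the mitochondrial genes. Their medians were 23.6, 255, 274, 141 and 211 CPM in vector and 25.3, 295, 330, 143 and 227 CPM in IBC. In the mitochondrial class Mrpl2 lay at 40.7 to 53.02 CPM in vector (median 43.8) and 37.8 to 105 CPM in IBC (median 50.7), a difference of 0.39 ± 0.22 (edgeR adjusted p = 0.688), and 0.14 without IBC 5. Mrpl13, Mrpl16, Mrps18a, Mrps9 and Mrpl17 differed by 0.43, 0.24, 0.30, 0.19 and 0.28, and by 0.182, 0.0700, 0.0651, 0.0454 and 0.0995 without IBC 5. Of these, Mrpl16 lay at 17.6 to 23.6 CPM and Mrps9 at 42.8 to 51.0 CPM in vector, and at 16.7 to 37.9 and 41.3 to 79.8 CPM in IBC.

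In the edgeR fit, the class medians of the Hoxb13 sets had opposite directions in this comparison. Within the Hoxb13-high libraries the class medians of IBC against vector were -0.17 for the cytosolic and -0.11 for the mitochondrial genes, and within the Hoxb13-low libraries they were 0.71 and 0.62, on 2 libraries a group. Rpl30, Rps13, Rpl36al, Rplp2, Mrpl13, Mrpl16, Mrps18a and Mrps9 were lower in IBC within the high set. The lower level in the high set depended on the scale. There the mean cytosolic share of counts was 3.72% in vector and 3.64% in IBC. As summed FPKM, the cytosolic share was 4.17% to 5.99% in vector and 5.23% to 6.56% in IBC, so IBC was not lower on that scale. The difference between the sets was not tested.

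**Figure D5:**
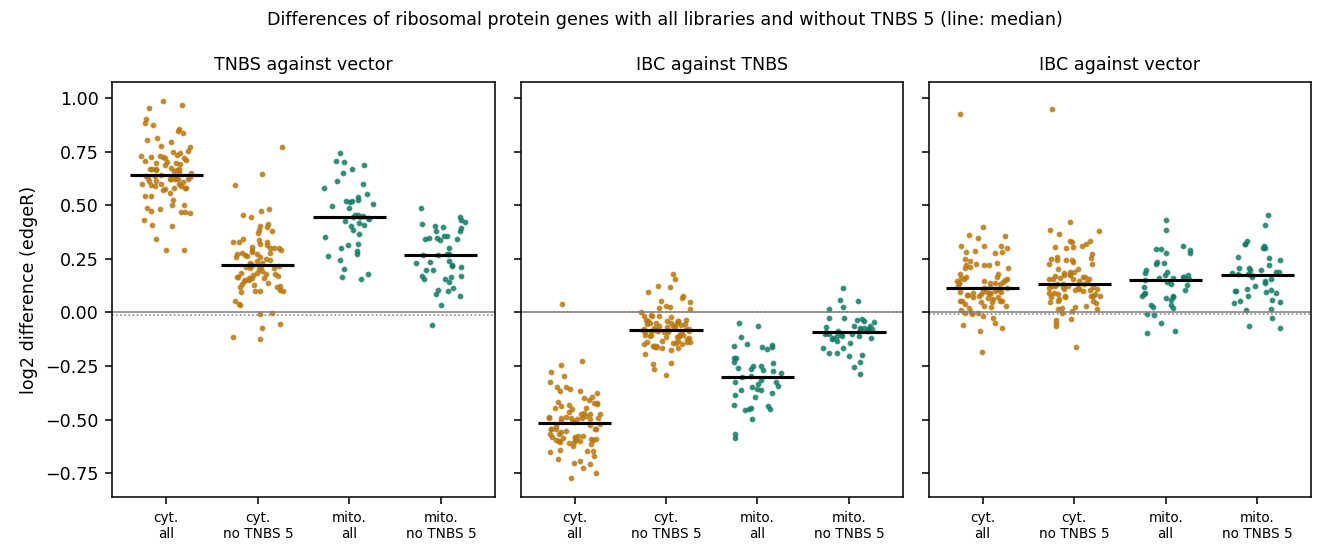
Log2 differences from edgeR for the cytosolic and mitochondrial ribosomal protein genes in the 3 comparisons, 1 point per gene, with all libraries and without TNBS 5, where solid black lines mark medians and the dotted line the median of all genes. The cytosolic medians with all libraries are 0.64, -0.51 and 0.11 from left to right, and the comparisons share libraries.

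Levels of the ribosome genes varied together from library to library. With group means removed, the median pairwise Pearson correlation over the 18 libraries was 0.93 among cytosolic genes, 0.86 among mitochondrial genes and 0.77 between the classes, where 2000 pairs of genes drawn from all tested had a median of -0.00. Without TNBS 5 the values were 0.84, 0.84 and 0.68 over 17 libraries. These points share each library's depth and composition, and the correlations are a description.

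Genes of neighbouring pathways were compared between TNBS and vector, from lists of related genes. Other genes with TOP mRNAs, mostly translation factors, were higher in TNBS in 22 of 22, where 48.9% of all genes were, with a median log2 difference of 0.48. Of them 11 had an unadjusted p under 0.05, where 10.4% of all genes were higher at that p, and none passed the adjusted threshold in edgeR. Without TNBS 5 the median was 0.23 and 5 had an unadjusted p under 0.05, where 7.94% of all genes did. Nap1l1, a histone chaperone, was at 94.2 ± 10.5 CPM in vector, 149 ± 32.9 CPM in TNBS and 135 ± 24.3 CPM in IBC (SD, n = 6), and all TNBS libraries lay above all vector libraries, as for 0.432% of all genes. Its log2 difference was 0.66 ± 0.15 (edgeR adjusted p = 0.0923, DESeq2 adjusted p = 0.00547). Npm1, a nucleolar assembly factor, was at 269.6 ± 34.1 CPM in vector and 475 ± 203 CPM in TNBS, a difference of 0.82 ± 0.23 (edgeR adjusted p = 0.134, DESeq2 0.0273). Eef1g, an elongation factor subunit, was at 368 ± 21.1 and 560.5 ± 133 CPM, a difference of 0.61 ± 0.17 (edgeR adjusted p = 0.144, DESeq2 0.0303). DESeq2 called 1.68% of all genes higher. Without TNBS 6, the edgeR adjusted p of Nap1l1, Npm1 and Eef1g was 0.0256, 0.0399 and 0.0453. No other left-out library and no other edgeR setting took these 3 genes past the threshold. The share of all genes called without TNBS 6 is not given here.

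Genes of mTORC1 and S6 kinase signalling had no common direction, with 9 higher and 13 lower in TNBS and a median of -0.07 (-0.04 without TNBS 5, with the same split). At an unadjusted p under 0.05, 3 were higher and 3 lower, where 10.4% of all genes were higher and 7.32% lower. Without TNBS 5 these were 2 and 1, where 7.94% of all genes were higher and 1089 of 20855 genes were lower. Eif4e, which binds the cap, was at 85.0 ± 9.98 CPM in vector and 116.7 ± 22.2 CPM in TNBS (log2 difference 0.46, edgeR adjusted p = 0.184). Its inhibitor Eif4ebp1 was at 22.8 ± 6.54 and 42.5 ± 26.0 CPM (0.90, and 0.53 without TNBS 5, edgeR adjusted p = 0.186), and Sesn1, which restrains mTORC1, at 24.6 ± 6.60 and 17.5 ± 3.49 CPM (-0.49, edgeR adjusted p = 0.200).

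Mitochondrial translation factors and assembly genes were higher in 19 of 25, where 48.9% of all genes were, with a median of 0.16, and in 21 of 25 with a median of 0.0955 without TNBS 5. Among them Mtg1 was at 14.7 ± 1.09 CPM in vector and 21.4 ± 6.96 CPM in TNBS (0.55), Tsfm at 25.5 ± 1.66 and 39.0 ± 9.48 CPM (0.61), and Rmnd1 at 26.1 ± 3.46 and 21.7 ± 3.00 CPM (-0.27). In a list drawn up for chaperones of ribosomal proteins and transcription regulators, 11 of 16 genes were higher (median 0.19, and 0.15 without TNBS 5). Whether each gene of that list has such a role was not tested. Nacad was lower, at 8.34 ± 3.01 and 4.03 ± 1.66 CPM (-1.05 ± 0.29, edgeR adjusted p = 0.138, DESeq2 0.0248). The share of all genes that DESeq2 called lower is not given here, so that call cannot be judged against it. Grwd1, a chaperone of Rpl3, was at 15.0 ± 4.84 and 29.4 ± 14.8 CPM (0.97) and Myc at 29.0 ± 7.28 and 43.9 ± 17.4 CPM (0.60).

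Ribosome rescue and collision genes gave 5 higher and 6 lower of 11 tested (median -0.15), and 6 higher and 5 lower without TNBS 5 (median 0.00913). Among them were Abce1 at 106 ± 25.3 and 136 ± 33.7 CPM (0.36), Pelo at 18.02 ± 2.79 and 23.1 ± 5.11 CPM (0.36) and Map3k20 at 29.1 ± 9.35 and 24.3 ± 4.67 CPM (-0.26, and -0.16 without TNBS 5). The list for ribosomal stress and p53 gave 5 higher and 3 lower (median 0.05), and 4 of each without TNBS 5 (median -0.0359). Mdm2 was at 44.8 ± 6.89 and 34.0 ± 6.56 CPM (-0.40), Sesn2 at 17.96 ± 7.10 and 13.0 ± 2.89 CPM (-0.46) and Bax at 51.9 ± 9.93 and 73.8 ± 36.1 CPM (0.51, and 0.23 without TNBS 5).

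The 52 copies that carry the pathway annotation themselves, a set that leaves out most of the named copies above, took a mean of 0.0183% of the counts in vector, 0.0258% in TNBS and 0.0202% in IBC. Of the 35 copies tested, 31 were higher in TNBS than in vector (median 0.54), and without TNBS 5 the split was 19 higher and 16 lower (median 0.02). The largest were Rpl34-ps1 at 113 FPKM, Gm6139 at 57.3 FPKM, Rpl13-ps6 at 35.9 FPKM and Rpl6l at 25.1 FPKM. None of the 30 genes for 5S ribosomal RNA passed the filter, and their highest count in any library was 2, in RNA selected for poly(A) tails.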

How the data were processed

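Libraries were made from poly(A) RNA bound to oligo(dT) beads, per the labels, and reads were trimmed with cutadapt 1.9 per the submitters' processing notes. Of the aligner, the counter and the build, each is not given in the sources used here. Each gene and library has, per the file headers, a deposited count and an FPKM value. Counts of 4 were more frequent (19961 gene and library pairs) than counts of 3 (9977) or 5 (6358), so a repeat with counts divided by 4 was run. Of 32979 genes shared with GENCODE M21 on GRCm38, 639 had the same start and end, so deposited coordinates are printed without a build.

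The counts were fitted with edgeR 4.0.16 in R 4.3.3 (filterByExpr, TMM factors, quasi-likelihood test, group means over all 18 libraries), with Benjamini-Hochberg adjustment over the 20855 genes kept. The script was tested on simulated data. Of the 211 members, 163 passed the filter. DESeq2 1.42.0 and limma 3.58.1 on log2(FPKM + 0.1) or log2(FPKM + 1) were alternatives. CPM values use TMM-scaled library sizes, and levels of different genes are compared as FPKM. A member without a protein-coding biotype in the table was called a copy. The members and lists were chosen with earlier results of these data known. Named genes were a list of members with known roles, the 6 of each class with the smallest p in each comparison, the 3 highest and 3 lowest of each class by FPKM, and up to 3 of each related list, and 1 of them is not reported here. Adding named copies to their gene, leaving out further libraries beyond each in turn, and the Hoxb13-high libraries without TNBS 5, were chosen after seeing the data. Promoters came from RefSeq (GRCm38.p6), matched by symbol.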

Additional observations from a re-analysis of the deposited data

Results flagged for a closer look

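In 186 groups of 6 libraries, for the named ribosome genes and the shares of counts, the highest or lowest library was compared with its neighbour relative to the range of the group. A gap above the 95% critical value of Dixon's test was found 41 times. Chance gives about 1 in 20 groups when the groups are independent. These groups are not independent, as they hold the same libraries and genes whose levels varied together. Some of the genes were also named for a small p in these data, so the 41 cannot be judged against that share. TNBS 5 was the highest library in 35 of the 41. Its cytosolic share was 9.83%. Among the small-subunit and fusion proteins its levels were 2441 CPM for Rps6, 5021 for Rpsa, 1144 for Fau, 1584 for Rps27a, 578 for Rps27, 227 for Rps27l, 117.1 for Rps18, 2317 for Rps7, 737 for Rps13, 1329 for Rps12, 1800.06 for Rps15 and 2313 for Rps3a1.

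Among the large-subunit proteins, TNBS 5 stood apart at 3613 CPM for Rplp0, 3115 for Rplp1, 2751 for Rpl41, 2180.42 for Rpl13a, 2391 for Rpl5, 1839 for Rpl11, 1453 for Rpl3, 2235 for Rpl10, 624.6 for Rpl22, 185 for Rpl22l1, 656 for Rpl36a, 614 for Rpl39, 1365 for Rpl31, 2455 for Rpl12, 856 for Rpl34, 2116 for Rpl6 and 26.8 for Rpl29. In the mitochondrial class it did so at 133 CPM for Mrps6, 200.57 for Mrpl30, 139 for Mrps14, 81.2 for Mrpl35 and 108 for Mrps21.

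Other libraries stood apart in 6 groups. IBC 5 was the highest of its group at 2093 CPM for Rpsa, 40.9 for Mrpl19, 529 for Rps13 and 486 for Rplp2. Vector 2 was the highest for Rpl30 at 35.1 CPM, and vector 3 the lowest for Mrps10 at 18.5 CPM.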

How the results depend on the processing

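No ribosomal protein gene passed the threshold in edgeR under any alternative filter, scaling factor, counting unit or left-out library listed here. DESeq2 called 1 cytosolic gene (Rpl17) in TNBS against vector and 1 in IBC against vector, and with named copies added it called 1 (Rps2) in TNBS against vector. The cytosolic median of TNBS against vector ranged from 0.22 (without TNBS 5) to 0.77 when each library was left out, and the mitochondrial one from 0.27 to 0.53. In IBC against TNBS the medians ranged from -0.64 to -0.08 and from -0.46 to -0.09, and in IBC against vector from -0.00604 to 0.19 and from -0.0237 to 0.23, both lowest without IBC 5. With library totals only, the median of all genes in IBC against TNBS was 0.12, and with limma on log2(FPKM + 0.1) it was 0.11.

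Whether equal replicate numbers pair the libraries is not labelled. Of the same-numbered pairs, 7 of 18 had a correlation of deviations over 0.1 (median -0.0208). Values for differently numbered pairs are not given here, so pairing is undetermined. With the replicate block the cytosolic and mitochondrial medians were 0.46 and 0.36 in TNBS against vector, -0.42 and -0.29 in IBC against TNBS, and 0.04 and 0.06 in IBC against vector, with 0 called.

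In the Hoxb13-low libraries alone, the cytosolic median was 0.0610 in IBC against TNBS and 0.71 in IBC against vector, and the mitochondrial median was 0.62 in IBC against vector. Mrpl30 was at 0.0208 and Mrps14 at 0.15 in IBC against TNBS. In the Hoxb13-high libraries alone, the mitochondrial median was -0.11 in IBC against vector, where Rpl30 was at -0.23, Rps13 at -0.0566, Rpl36al at -0.14, Rplp2 at -0.11, Mrpl13 at -0.0621, Mrpl16 at -0.0204, Mrps18a at -0.0304 and Mrps9 at -0.0515, and Map3k20 was at 0.0496 in TNBS against vector. There the log2 ratio of Rpl22l1 to Rpl22 differed by -0.0168 in IBC against vector, and Rps27l to Rps27 by -0.00397 in TNBS against vector and -0.0271 in IBC against vector. In the Hoxb13-high libraries without TNBS 5, the medians of TNBS against vector were -0.0356 and 0.0634, Map3k20 was at 0.189 and Bax at -0.0368. There, in IBC against vector, the mitochondrial median was -0.122, and Rpl30 was at -0.239, Rps13 at -0.0661, Rpl36al at -0.146, Rplp2 at -0.123, Mrpl13 at -0.0697, Mrpl16 at -0.0307, Mrps18a at -0.0401 and Mrps9 at -0.0617. With each library left out, Rpl22l1 to Rpl22 ranged from -0.00881 to 0.143 in IBC against vector, and Rps27l to Rps27 from -0.00328 to 0.143 in TNBS against vector, -0.0202 to 0.126 in IBC against vector and -0.0502 to 0.0321 in IBC against TNBS. Rpl36al to Rpl36a ranged from -0.159 to 0.0528 in IBC against TNBS. As summed FPKM, the cytosolic share was 4.70% in vector, 6.56% in TNBS and 5.76% in IBC. The mitochondrial share on that scale was 0.212%, 0.267% and 0.256%, and the log2 ratio of the classes was -4.44, -4.57 and -4.50. Without genes of mitochondrial DNA in the total, the mitochondrial share was 0.206% in vector, 0.262% in TNBS and 0.225% in IBC. The cause of these changes was not tested. Depth was 55.7 to 78.9 times 1e6 counts a library, so the spread between libraries and not counting limits the abundant members, while Rpl3l, at 0.0904 FPKM, rests on few counts.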
